A study of Mus musculus with 6 samples.

Results

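Mincle (Clec4e) and 9 related genes of myeloid cells were followed in mouse gingiva, the mucosa around the teeth. The 10 genes are the C-type lectin receptors Clec4e, Clec4d, Clec4n, Clec4a1, Clec4a2, Clec4a3 and Clec7a, the adaptor Fcer1g, the kinase Syk and the adaptor Card9. They were picked by symbol from 48709 genes in the count table, and all 10 were present and passed the filter on low counts, as did 17757 genes in all. The family was selected on these measurements, because Clec4e was among the genes with the largest rise in mice without plasminogen. The differences of its members are therefore given as a description, with no test of their own.

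RNA sequencing libraries from gingiva of C57BL/6 mice aged 12 weeks fell into 2 groups of 3. Plg KO mice lack Plg, the gene of plasminogen, whose active form plasmin dissolves fibrin. The Plg WT mice were littermates with the gene intact, and neither group carried any other labelled allele or treatment. Total gene counts were 26183389 to 36429150 in Plg KO and 28184139 to 36006829 in Plg WT, and separate animals for each library are not stated, so the p-values given here measure the spread between libraries, which may be technical. Plg had 2 counts in Plg KO 1 and 2 counts in Plg WT 3 and 0 in every other library, so it does not check the genotypes in this tissue. Xist and Ddx3y counts were of the male type in Plg KO 1 and Plg WT 3 and of the female type in the other 4 libraries. Oral keratinocyte genes (Krt5, Krt14, Krt13, Krt4, Krt6a, Cdh1 and Epcam) summed to 40529 to 49010 CPM (counts scaled to library size) in Plg KO and 38832 to 46284 CPM in Plg WT. Salivary gland genes summed to 8190, 7904 and 9897 CPM in Plg KO 1, 2 and 3. In Plg WT 1, 2 and 3 they summed to 10533, 3040 and 1692 CPM, so Plg WT 2 and Plg WT 3 lay below every other library. Skeletal muscle genes summed to 1673, 6768 and 7772 CPM in Plg KO 1, 2 and 3. In Plg WT 1, 2 and 3 they summed to 7659, 3897 and 4811 CPM, so Plg KO 1 was the lowest library.

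C-type lectin receptors let myeloid cells recognise sugars and glycolipids on microbes and dying cells. Mincle, MCL (Clec4d) and Dectin-2 (Clec4n) carry no signalling motif in their own tails and signal through the adaptor Fcer1g, whose phosphorylated ITAM motif recruits Syk. Dectin-1 (Clec7a) binds beta-glucan and recruits Syk through a motif in its own tail. Syk signalling reaches Card9, which assembles with Bcl10 and Malt1 and activates NF-kB, and inflammatory cytokine genes are among the targets. Mincle itself is scarce in resting mouse macrophages and is induced by microbial products through Myd88 and C/EBP-beta.

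Promoter windows from RefSeq (build GRCm38.p6; 250 bases before and 50 bases after a transcription start) were found for 9 of the 10 members, all but Clec4n. The windows below are those of the receptors whose libraries did not overlap between genotypes, given so that their start regions can be read side by side. They lie at chr6:123289822-123290121 on the minus strand (Clec4e), chr6:123261857-123262156 on the plus strand (Clec4d) and chr6:129472730-129473029 on the minus strand (Clec7a, the first of its 2 listed starts). Each is written 5′ to 3′ on the strand of its gene, and capitals mark a motif match.
Clec4e: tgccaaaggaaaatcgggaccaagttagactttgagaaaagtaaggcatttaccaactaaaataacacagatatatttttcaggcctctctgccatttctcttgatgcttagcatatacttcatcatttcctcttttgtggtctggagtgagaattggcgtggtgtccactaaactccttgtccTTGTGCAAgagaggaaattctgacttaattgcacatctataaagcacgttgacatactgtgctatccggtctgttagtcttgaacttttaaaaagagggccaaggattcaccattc
Clec4d: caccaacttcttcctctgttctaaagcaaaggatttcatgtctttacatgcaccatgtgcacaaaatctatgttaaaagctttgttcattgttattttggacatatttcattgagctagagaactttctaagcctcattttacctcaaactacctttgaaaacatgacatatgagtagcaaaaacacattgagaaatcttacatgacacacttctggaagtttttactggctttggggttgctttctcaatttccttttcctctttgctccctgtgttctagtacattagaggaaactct
Clec7a: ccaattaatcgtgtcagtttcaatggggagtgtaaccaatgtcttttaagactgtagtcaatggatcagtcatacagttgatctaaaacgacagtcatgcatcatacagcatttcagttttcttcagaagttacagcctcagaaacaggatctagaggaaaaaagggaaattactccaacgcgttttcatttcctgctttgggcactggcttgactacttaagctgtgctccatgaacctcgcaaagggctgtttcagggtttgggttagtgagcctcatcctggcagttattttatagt
A set of 4 motifs were searched on both strands. The C/EBP motif TTGCNNAA was found in the Clec4e window as TTGTGCAA, read here on the gene strand with its first base 66 bases upstream of the start (position -66). Of 32851 promoter windows, 10.8% held this motif. The AP-1 motif TGANTCA (7.81% of windows), the PU.1 motif GAGGAAGT (3.20%) and the NF-kB motif GGANTTTCC (1.25%) had no match in the windows of Clec4e, Clec4d and Clec7a. The only other match among members was an AP-1 letter string, TGACTCA, in the window of Clec4a2. No matches overlapped. These are letter matches and were not tested as binding sites.

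Clec4e, which binds mycobacterial cord factor and other trehalose glycolipids, had 84, 87 and 86 counts in Plg KO 1, 2 and 3, against 6, 3 and 7 counts in Plg WT 1, 2 and 3. After TMM normalisation these were 2.27, 3.38 and 2.41 CPM in Plg KO and 0.164, 0.107 and 0.224 CPM in Plg WT. The lowest Plg KO library lay far above the highest Plg WT library, and the 3 Plg KO counts were nearly equal. Means were 2.69 ± 0.605 CPM in Plg KO and 0.165 ± 0.0586 CPM in Plg WT (SD, n = 3 each), a log2 difference of 3.98 ± 0.36 (SE), or 15.8-fold. The 16 counts of the Plg WT group give a 95% Poisson interval of 0.0954 to 0.271 CPM, and the 257 counts of the Plg KO group one of 2.30 to 2.95 CPM. These intervals cover counting error only, since reads carry no molecular identifiers. Clec4e ranked 6 of 17757 genes by log2 difference.

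Clec4d, which forms a receptor complex with Mincle, had 32, 32 and 36 counts in Plg KO 1, 2 and 3 and 1, 11 and 5 counts in Plg WT 1, 2 and 3. Its level was 0.864, 1.24 and 1.008 CPM in Plg KO, against 0.0273, 0.393 and 0.160 CPM in Plg WT. All Plg KO libraries were higher, and the Plg WT libraries differed widely among themselves, Plg WT 1 lying under the 3 counts that a count of 0 allows. The log2 difference was 2.46 ± 0.67 (SE), or 5.51-fold, and its size rested on few counts, 100 in Plg KO and 17 in Plg WT over the group.

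Clec7a had 106, 49 and 58 counts in Plg KO 1, 2 and 3, against 16, 15 and 18 counts in Plg WT 1, 2 and 3. As levels these were 2.86, 1.90 and 1.62 CPM in Plg KO and 0.437, 0.536 and 0.577 CPM in Plg WT. The groups did not overlap and the Plg WT libraries were close together, with Plg KO 1 the highest of the 6. The log2 difference was 2.04 ± 0.32 (SE), or 4.12-fold, and Clec7a ranked 60 of all genes tested by log2 difference. The annotation used here (GENCODE M21) lists mouse Clec7a as a polymorphic pseudogene with coding transcripts.

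Clec4n, the receptor for fungal mannans, behaved differently among the Plg KO libraries. It had 5.02 and 5.75 CPM in Plg KO 1 and 2 but 1.40 CPM in Plg KO 3, against 1.31, 1.499 and 1.22 CPM in Plg WT 1, 2 and 3. Plg KO 3 thus fell within the range of Plg WT, while the other 2 Plg KO libraries were more than 3 CPM above it. The means were 4.06 ± 2.33 CPM in Plg KO and 1.34 ± 0.144 CPM in Plg WT (SD, n = 3 each), and the log2 difference was 1.59 ± 0.49 (SE).

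The Clec4a receptors are dendritic cell immunoreceptors; mouse Clec4a2 carries an inhibitory ITIM motif, which Clec4a1 and Clec4a3 lack. Clec4a1 had 6.45, 4.195 and 2.83 CPM in Plg KO 1, 2 and 3, against 3.41, 4.43 and 4.07 CPM in Plg WT 1, 2 and 3. Clec4a2 had 1.27, 0.622 and 0.420 CPM in Plg KO and 0.682, 1.25 and 0.801 CPM in Plg WT. Clec4a3 had 2.94, 1.01 and 0.896 CPM in Plg KO and 0.573, 1.11 and 1.63 CPM in Plg WT. Genotypes overlapped for each of the 3 genes, and Plg KO 1 was the highest of the 6 libraries for each. Their log2 differences were 0.18 ± 0.31 for Clec4a1, -0.22 ± 0.48 for Clec4a2 and 0.57 ± 0.57 for Clec4a3 (SE), and without Plg KO 1 they were -0.18, -0.81 and -0.21. Of the Clec4a2 transcripts, 9.21% of the 37-base words (the read length) also occur in transcripts of other genes, Clec4a4 most often, the largest shared part among the receptors.

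Fcer1g, the ITAM adaptor that Mincle, MCL and Dectin-2 share with Fc receptors, had 19.9, 14.6 and 14.0 CPM in Plg KO 1, 2 and 3, against 10.9, 13.3 and 11.9 CPM in Plg WT 1, 2 and 3. Every Plg KO library was above every Plg WT library, but the lowest Plg KO value and the highest Plg WT value were close, and the log2 difference was 0.43 ± 0.17 (SE), or 1.34-fold. Syk had 11.9, 10.3 and 8.40 CPM in Plg KO and 14.7, 12.4 and 11.3 CPM in Plg WT. Its groups overlapped, with a log2 difference of -0.33 ± 0.17 (SE). Card9 was low, at 0.999, 0.932 and 0.448 CPM in Plg KO and 0.273, 0.857 and 0.993 CPM in Plg WT, and its groups overlapped across nearly their whole range. Its log2 difference was 0.17 ± 0.54 (SE).

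**Figure D1:**
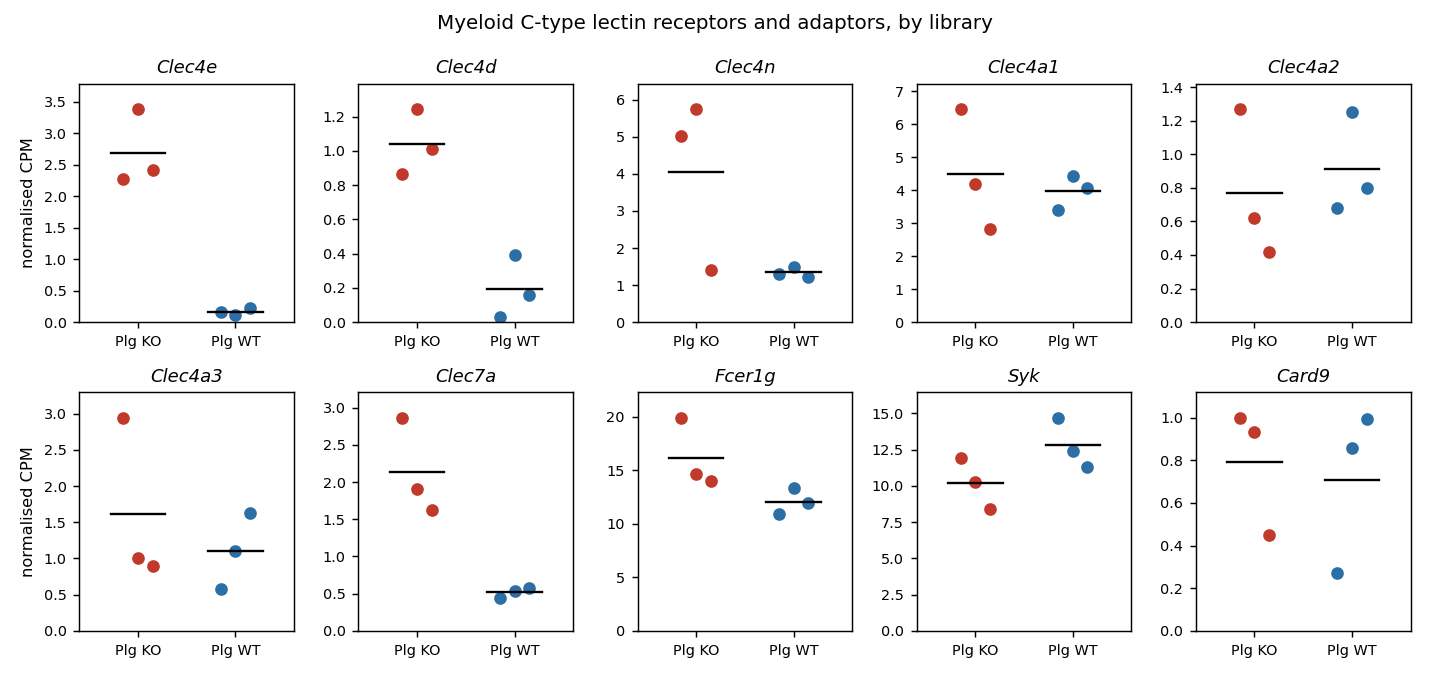
Normalised CPM (linear axes starting at 0) of each of the 10 members in each library, 3 Plg KO and 3 Plg WT, with the group mean as a bar. Clec4e, Clec4d, Clec7a and Fcer1g have every Plg KO point above every Plg WT point, while Clec4n has 1 Plg KO library, at 1.40 CPM, among the Plg WT points.

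In the fit across all genes (edgeR's quasi-likelihood test, Benjamini-Hochberg adjustment, called at an adjusted p under 0.05), 1 of the 10 members, Clec4e, was called higher in Plg KO, beside 0.191% of all genes tested. None of the 10 was called lower, beside 0.0451% of all genes, and 0.237% of all genes were called in either direction. At an unadjusted p under 0.05 the count was 5 members higher, beside 4.97% of all genes, and 0 lower, beside 4.27%. DESeq2 called 4 higher (Clec4e, Clec4d, Clec4n and Clec7a), beside 1.42% of the 18572 genes to which it gave an adjusted p, and 0 lower, beside 0.711%. Limma-voom called 1 higher, beside 0.18% of all genes, and 0 lower, beside 0.0507%. The 4 members Clec4e, Clec4d, Clec7a and Fcer1g had all Plg KO libraries above all Plg WT libraries, beside 7.51% of all genes, and 0 members had them all below, beside 7.18%. The median log2 difference was 0.50 over the 10 members and -0.00 over all genes. Since the members were selected on this contrast, nothing is read from these counts. The Clec4e call was lost when Plg KO 2, Plg KO 3, Plg WT 2 or Plg WT 3 was left out, although its log2 difference then still lay between 3.77 and 4.24.

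**Figure D2:**
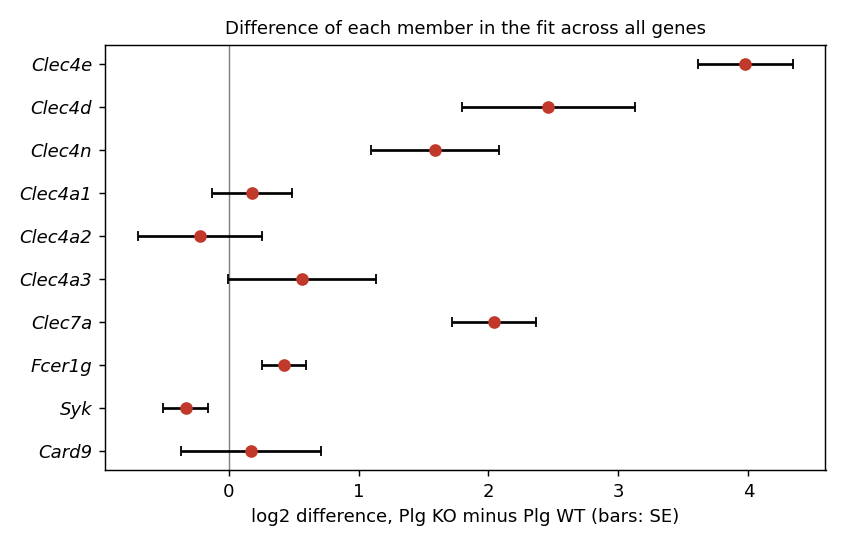
Log2 difference between Plg KO and Plg WT (points, with SE bars) for each member, from the fit across all genes, with a line at 0. The points run from -0.33 for Syk to 3.98 for Clec4e.

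In bulk tissue, a change in the number of cells of a type and a change in RNA per cell cannot be told apart. Neutrophil marker sums, like Clec4e, were higher in every Plg KO library than in any Plg WT library. Their summed level (16 genes) was 244, 543 and 186 CPM in Plg KO 1, 2 and 3, against 44.3, 71.3 and 84.6 CPM in Plg WT 1, 2 and 3. Of the 11 that were tested, all had a positive log2 difference (median 2.43) and 8 were higher at an unadjusted p under 0.05, beside 4.97% of all genes. EdgeR and limma-voom called 0 of them, and DESeq2 called 6 higher, beside 1.42% of all genes. S100a8 and S100a9 made up most of the sum in every library. Without them, a choice made after seeing the data, the sum of the remaining 14 genes again showed no overlap. It was 38.4, 77.0 and 63.6 CPM in Plg KO and 18.8, 21.8 and 21.5 CPM in Plg WT. Hdc and Il1r2 together made up most of this smaller sum in every library. Hdc had 13.5, 29.6 and 25.1 CPM in Plg KO and 4.45, 5.21 and 5.99 CPM in Plg WT. Il1r2 overlapped between groups, with 13.4 CPM in Plg KO 3 and 13.8 CPM in Plg WT 2. The cell types that S100a8, S100a9, Hdc and Il1r2 came from were not tested, so neither sum is a count of neutrophils. Of the granule genes, Camp had 0.0540, 0.117 and 1.82 CPM in Plg KO and 0.682, 0.464 and 0.416 CPM in Plg WT, and Ngp had 0, 1.17 and 4.43 CPM in Plg KO and 0.901, 0.107 and 0.288 CPM in Plg WT. Both overlapped between groups, and Plg KO 1 was the lowest of the 6 libraries for each. Ly6g, the defining surface marker of mouse neutrophils, was at 0 in Plg KO 1, Plg WT 1 and Plg WT 3 and reached 1.79 CPM in Plg KO 2. Mpo, Elane, Ly6g, Stfa2l1 and Fpr2 were too low to be tested.

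Macrophage marker sums overlapped between the groups. Their summed level (12 genes) was 136, 113 and 107 CPM in Plg KO and 113, 128 and 119 CPM in Plg WT. Csf1r, the receptor for the macrophage growth factor, had 9.37, 8.74 and 6.97 CPM in Plg KO and 9.44, 9.64 and 5.96 CPM in Plg WT. Of 11 macrophage markers tested, 0 were higher and 2, Lyve1 and Cd163, were lower at an unadjusted p under 0.05. Over all genes these shares were 4.97% and 4.27%. The median log2 difference of the macrophage markers was 0.00. EdgeR called 0 in either direction, limma-voom 0, and DESeq2 1 lower, beside 0.711% of all genes. Plg KO 1, the library highest in Clec4a1, Clec4a2, Clec4a3 and Clec7a, had the highest macrophage sum and also the highest dendritic and Langerhans cell sum. Plg KO 1 was also the Plg KO library of the male type and the lowest library in skeletal muscle genes. Monocyte markers summed to 20.1 to 24.2 CPM in Plg KO and 25.2 to 28.2 CPM in Plg WT, and dendritic and Langerhans cell markers to 25.01 to 37.3 CPM in Plg KO and 28.7 to 33.4 CPM in Plg WT. Mast cell markers were 22.4 to 25.2 CPM in Plg KO and 29.4 to 38.6 CPM in Plg WT, and B and plasma cell markers 1.55 to 14.4 CPM in Plg KO and 16.0 to 55.5 CPM in Plg WT. The part of any of these cell types in the differences of the members was not tested.

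Ratios within a library set the receptors beside one marker at a time. Clec4e relative to Csf1r was 0.242, 0.387 and 0.345 in Plg KO 1, 2 and 3, against 0.0173, 0.0111 and 0.0376 in Plg WT 1, 2 and 3. Clec4e relative to Csf3r, the granulocyte growth factor receptor, was 0.525, 0.420 and 0.382 in Plg KO and 0.207, 0.250 and 0.143 in Plg WT. Every Plg KO ratio was above every Plg WT ratio for both markers, by a wider gap against Csf1r than against Csf3r. The Plg WT ratios rest on 6, 3 and 7 counts of Clec4e and, for Csf3r, on 29, 12 and 49 counts. Clec4e was selected for its rise, so nothing is read from this separation. The ratio of Clec7a to Csf1r was 0.305, 0.218 and 0.233 in Plg KO and 0.0462, 0.0556 and 0.0968 in Plg WT. Its ratio to Csf3r was 0.663, 0.237 and 0.258 in Plg KO and 0.552, 1.25 and 0.367 in Plg WT, where the groups overlapped. The Plg WT ratios rest on 16, 15 and 18 counts of Clec7a. The members were selected on this contrast, so nothing is read from these Clec7a ratios either. Relative to its adaptor Fcer1g, Clec4e was at 0.114, 0.231 and 0.172 in Plg KO and 0.0150, 0.00804 and 0.0189 in Plg WT. The ratio of Clec4d to Csf3r overlapped between groups, at 0.155 to 0.200 in Plg KO and 0.0345 to 0.917 in Plg WT. Ratios of Clec4n to Csf3r and to Csf1r overlapped as well.

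**Figure D3:**
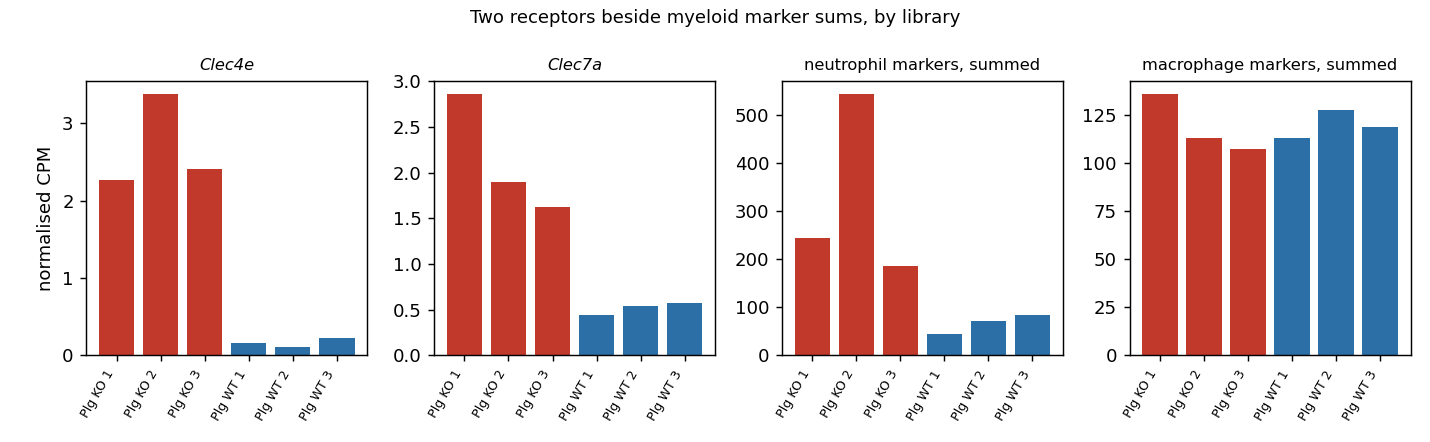
Normalised CPM by library of Clec4e and Clec7a beside the summed CPM of the neutrophil and macrophage marker lists, Plg KO libraries left of Plg WT libraries, bars from 0. The neutrophil sum is 186 to 543 CPM in Plg KO and 44.3 to 84.6 CPM in Plg WT, while the macrophage sum is 107 to 136 CPM in Plg KO and 113 to 128 CPM in Plg WT.

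To compare levels between genes, CPM was divided by the length of the longest coding transcript in kilobases. On this scale Fcer1g was the highest member in either group, with a mean of 23.7 CPM per kb in Plg KO and 17.6 CPM per kb in Plg WT, clear of every other gene. In Plg KO it was followed by Clec4n (3.30), Clec4a1 (2.88), Syk (1.90), Clec4a3 (1.24), Clec4e (1.07), Clec7a (0.935), Clec4d (0.785), Card9 (0.407) and Clec4a2 (0.310 CPM per kb). Below Fcer1g, the 3 libraries of neighbours overlapped except between Clec4d and Card9. In Plg WT the order below Fcer1g was Clec4a1 (2.55), Syk (2.39), Clec4n (1.09), Clec4a3 (0.850), Clec4a2 (0.367), Card9 (0.363), Clec7a (0.227), Clec4d (0.146) and Clec4e (0.0655 CPM per kb), and neighbours overlapped except between Syk and Clec4n. Clec4e was the least abundant of the 10 in Plg WT and stood 6 in order in Plg KO. With the length of all merged exons, 4965 bases for Clec4e in place of 2518, it stood 8 in Plg KO and 10 in Plg WT.

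The 7 receptors together reached 13.8, 11.5 and 6.25 CPM per kb in Plg KO 1, 2 and 3, against 4.25, 5.99 and 5.64 CPM per kb in Plg WT 1, 2 and 3. Clec4a1 held 30.0%, 23.4% and 29.1% of this sum in Plg KO and 51.5%, 47.4% and 46.3% in Plg WT. Clec4e held 6.52%, 11.7% and 15.3% in Plg KO and 1.53%, 0.710% and 1.58% in Plg WT. The share of Clec4e was above that of Plg WT in every Plg KO library, and that of Clec4a1 was below it. Shares add up to the whole, so a larger share of some receptors lowers that of the others, and the level of Clec4a1 itself was 2.88 CPM per kb in Plg KO and 2.55 CPM per kb in Plg WT. Grouped after their values were seen, the Syk-coupled receptors Clec4e, Clec4d, Clec4n and Clec7a made up 58.3 ± 8.93% of the sum in Plg KO and 29.1 ± 3.02% in Plg WT, and Clec4a1, Clec4a2 and Clec4a3 made up 41.7 ± 8.93% in Plg KO and 70.9 ± 3.02% in Plg WT (SD, n = 3 each). In Plg KO 3, where the receptor sum was the smallest of that group and close to the highest Plg WT sum, Clec4e and Clec4d had their largest shares, at 15.3% and 12.2%.

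**Figure D4:**
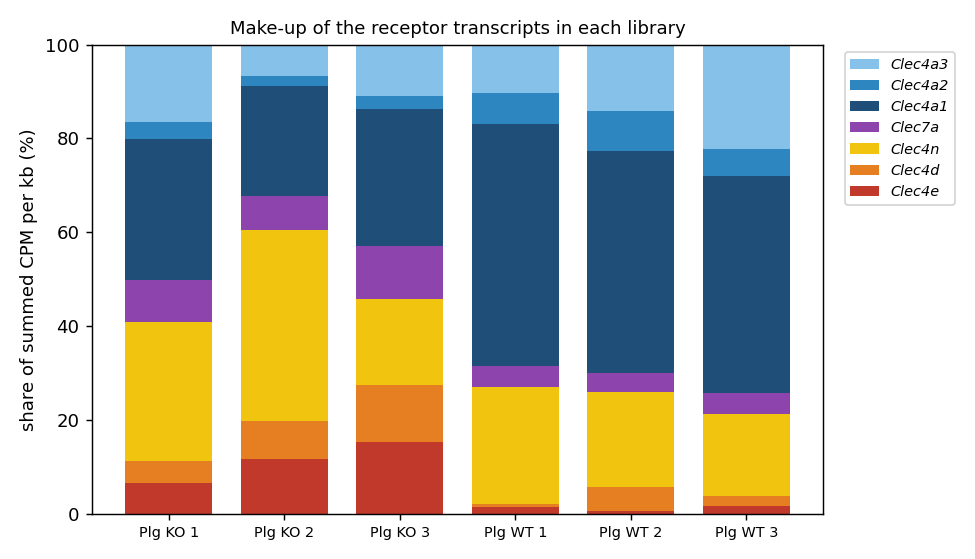
Share (%) of the summed CPM per kb of the 7 receptors taken by each receptor, 1 stacked bar per library, Plg KO left of Plg WT. Clec4a1 takes 23.4% to 30.0% of the bar in Plg KO and 46.3% to 51.5% in Plg WT.

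Of the 7 receptors, 6 lie in one cluster on chromosome 6 (GENCODE M21, GRCm38). Clec4e spans 123281789 to 123289870 on the minus strand, and Clec4d (123262111 to 123275265), Clec4n (123229843 to 123247021), Clec4a2 (123106428 to 123143999), Clec4a3 (122952515 to 122969875) and Clec4a1 (122921848 to 122934619) lie on the plus strand, all on one side of it. Clec7a lies farther along the same chromosome, at 129461591 to 129472779 on the minus strand. By distance of their start from that of Clec4e, the log2 difference was 2.46 for Clec4d (27.8 kb away) and 1.59 for Clec4n (60.03 kb), against -0.22 for Clec4a2 (183 kb), 0.57 for Clec4a3 (337 kb) and 0.18 for Clec4a1 (368 kb). A total of 14 genes with a start within 500 kb of that of Clec4e were tested, 8 of them not members. Among these 8, edgeR, DESeq2 and limma-voom called 0 in either direction, and 0 had an unadjusted p under 0.05. Their log2 differences ran from -0.15 (Gm4482) to 0.69 (C3ar1, the receptor of complement fragment C3a). The lectin gene Clec4b1, which lies between Clec4a3 and Clec4a2, had 0.702, 0.660 and 0.756 CPM in Plg KO and 0.710, 0.571 and 0.416 CPM in Plg WT, with overlapping groups. The log2 differences of the other 5 were 0.10 for Slc2a3, 0.01 for Gm5112, -0.02 for Foxj2, 0.18 for Necap1 and 0.12 for Gm5883.

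**Figure D5:**
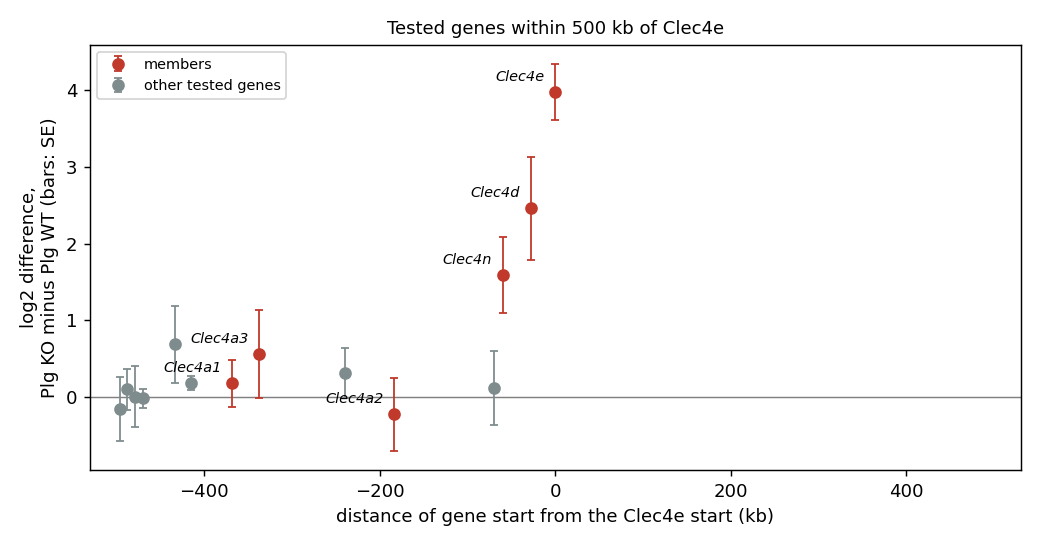
Log2 difference between Plg KO and Plg WT (points, with SE bars) of the 14 genes tested within 500 kb of the Clec4e start, against the distance of their start from it in kb, members and non-members in different colours. Clec4e (3.98), Clec4d (2.46) and Clec4n (1.59) stand above the 8 non-members, which lie between -0.15 and 0.69, and no gene beyond Clec4e on the right was tested.

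Likeness to Clec4e was measured as the root mean square difference between centred log2 CPM profiles over the 6 libraries. The search covered the 13135 tested genes that averaged 1 CPM or more, with unnamed gene models left out. The 5 closest were Osm (0.57), the cytokine oncostatin M, Csf3r (0.61), Mmp10 (0.61), a matrix metalloproteinase, Ppbp (0.67), a chemokine precursor carried by platelets, and Ptgs2 (0.68), the inducible cyclooxygenase. Osm, the closest, had 1.48, 3.30 and 2.16 CPM in Plg KO 1, 2 and 3, against 0.273, 0.250 and 0.320 CPM in Plg WT 1, 2 and 3. Like Clec4e, Osm was highest in Plg KO 2 and had no overlap between groups. Among the members themselves, taken at any mean level, Clec7a (1.08) and Clec4d (1.23) were the nearest to Clec4e and Clec4a2 (2.26) the farthest. A small value mainly records a difference between genotypes of similar size.

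Downstream of the receptors, 31 other genes of the Syk and Card9 pathway were tested. At an unadjusted p under 0.05, 2 were higher and 4 lower, beside 4.97% and 4.27% of all genes. EdgeR and limma-voom called 0 of them, and DESeq2 1 higher and 2 lower, beside 1.42% and 0.711% of all genes. The median log2 difference of the 31 genes was -0.07. The 3 with the smallest p were Plcg2, the phospholipase that Syk activates, Btk, a kinase of B cells and myeloid cells, and Fgr, a myeloid kinase of the Src family. Plcg2 had 18.0, 15.8 and 18.6 CPM in Plg KO 1, 2 and 3 and 27.6, 31.0 and 27.8 CPM in Plg WT 1, 2 and 3 (log2 difference -0.72 ± 0.11 SE, edgeR quasi-likelihood Benjamini-Hochberg adjusted p = 0.0698). Btk had 1.48, 1.71 and 2.18 CPM in Plg KO and 9.77, 5.14 and 3.68 CPM in Plg WT, with a log2 difference of -1.79 ± 0.38 (SE) and an adjusted p of 0.172 by the same edgeR test. Both had every Plg KO library below every Plg WT library, as had 7.18% of all genes. B and plasma cell marker sums, given above, lay lower in Plg KO as well. Jchain, from that list, overlapped, with 12.0 CPM in Plg KO 3 and 3.17 to 6.85 CPM in Plg WT. The part of these cells in the Plcg2 and Btk differences was not tested. Fgr had 3.83, 3.96 and 1.99 CPM in Plg KO and 1.20, 1.43 and 1.22 CPM in Plg WT (log2 difference 1.34 ± 0.31 SE, edgeR adjusted p = 0.199). The partners of Card9 differed little, with log2 differences of 0.18 ± 0.10 for Bcl10 and 0.25 ± 0.20 for Malt1 (SE) and overlapping groups.

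Of 6 inhibitory phosphatases and ubiquitin enzymes, edgeR, DESeq2 and limma-voom called 0. At an unadjusted p under 0.05, 1 was higher, beside 4.97% of all genes. That gene, Tnfaip3 (A20), which restrains NF-kB signalling, had 6.21, 6.18 and 5.24 CPM in Plg KO and 3.71, 4.50 and 3.396 CPM in Plg WT (log2 difference 0.60 ± 0.18 SE, edgeR adjusted p = 0.321). The lipid phosphatase gene Inpp5d (SHIP1) had a log2 difference of -0.70 ± 0.32 (SE) and the SHP-1 gene Ptpn6 one of -0.26 ± 0.12 (SE), with edgeR adjusted p-values of 0.568 and 0.588.

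Of 30 other C-type lectins, not all of them receptors of myeloid cells, 23 were tested. EdgeR and limma-voom called 0 while DESeq2 called 1 lower, beside 0.711% of all genes. An unadjusted p under 0.05 was reached by 1 higher and 4 lower genes, beside 4.97% and 4.27% of all genes. The median log2 difference of the 23 lectins was -0.19. The 1 higher gene was Clec5a, a myeloid receptor that signals through the adaptor Dap12, with 2.38, 2.29 and 1.76 CPM in Plg KO 1, 2 and 3, against 0.873, 1.18 and 0.865 CPM in Plg WT 1, 2 and 3. Its groups did not overlap (log2 difference 1.14 ± 0.26 SE, edgeR adjusted p = 0.195). Colec12, a scavenger receptor, had 5.10, 3.81 and 5.01 CPM in Plg KO and 7.97, 7.96 and 7.24 CPM in Plg WT (log2 difference -0.73 ± 0.17 SE, edgeR adjusted p = 0.195). Cd209b, a DC-SIGN homologue, was also lower in each Plg KO library, with a log2 difference of -1.55 ± 0.44 (SE) and an edgeR adjusted p of 0.295.

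Of 15 further receptors and adaptors, most of them linked to ITAM motifs, 9 were tested. EdgeR and limma-voom called 0 and DESeq2 1 higher, beside 1.42% of all genes. At an unadjusted p under 0.05, 3 were above and 0 below, beside 4.97% and 4.27% of all genes. The median log2 difference of the 9 was 0.55. These 9 include the inhibitory receptor gene Fcgr2b and the adaptor gene Hcst, which are not linked to an ITAM. Their log2 differences were -0.25 and -0.03, the 2 negative ones of the list. Trem1, an activating receptor of neutrophils and monocytes, had 2.40, 4.16 and 3.28 CPM in Plg KO 1, 2 and 3, against 0.846, 0.143 and 0.160 CPM in Plg WT 1, 2 and 3 (log2 difference 3.03 ± 0.63 SE, edgeR adjusted p = 0.166). Tyrobp, which encodes Dap12, had 17.2, 16.6 and 12.97 CPM in Plg KO and 9.33, 11.6 and 9.48 CPM in Plg WT (log2 difference 0.62 ± 0.16 SE, edgeR adjusted p = 0.242). Neither gene overlapped between groups. The ITAM adaptor Cd247, which serves T and NK cell receptors, had a log2 difference of 0.23 ± 0.39 (SE) and overlapping groups. Trem3 had 0.351, 0.505 and 0.336 CPM in Plg KO and 0.191, 0.0357 and 0 CPM in Plg WT, with an edgeR adjusted p of 0.441.

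Of the 6 pathway lists, the cytokine and chemokine genes that Syk and Card9 signalling is known to induce had the highest median log2 difference. Of 16 listed, 10 were tested, and 9 of these had all Plg KO libraries above all Plg WT libraries, with a median log2 difference of 1.601. The non-overlapping pattern was found in 7.51% of all genes. EdgeR called 1 higher, Il1b, and 0 lower, beside 0.191% and 0.0451% of all genes. Limma-voom called 1 higher (0.18% of all genes) and DESeq2 8 higher (1.42%), and 9 were higher at an unadjusted p under 0.05 (4.97%). The lists were chosen with earlier results of these data known, so nothing is read from these counts. Il1b rose to 9.07, 16.0 and 12.1 CPM in Plg KO 1, 2 and 3, against 1.09, 2.32 and 1.76 CPM in Plg WT 1, 2 and 3 (log2 difference 2.85 ± 0.33 SE, edgeR adjusted p = 0.0252). That call was lost without Plg KO 2, Plg KO 3, Plg WT 2 or Plg WT 3, the libraries whose removal also ended the Clec4e call. Csf3, the granulocyte growth factor, had 7.56, 20.3 and 9.50 CPM in Plg KO and 0.600, 1.89 and 1.41 CPM in Plg WT (log2 difference 3.27 ± 0.52 SE, edgeR adjusted p = 0.0772). Il1a had 7.29, 14.2 and 10.5 CPM in Plg KO and 4.203, 3.999 and 3.27 CPM in Plg WT (log2 difference 1.47 ± 0.26 SE, edgeR adjusted p = 0.0954). Plg KO 2 was the highest library for all 3 genes, as it was for Clec4e and for the neutrophil sum. Nos2 was the exception, with a log2 difference of -0.13 and overlapping groups, and these cytokine genes are also induced by other receptors.

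Genes known to induce Mincle, and Sap130 listed with them, differed less. Of the 6, edgeR, DESeq2 and limma-voom called 0, and 1, Tlr4, was higher at an unadjusted p under 0.05, beside 4.97% of all genes. Tlr4 had 4.40, 4.89 and 4.48 CPM in Plg KO 1, 2 and 3 and 3.22, 3.28 and 2.63 CPM in Plg WT 1, 2 and 3 (log2 difference 0.59 ± 0.18 SE, edgeR adjusted p = 0.332). Cebpb, whose product binds the C/EBP motif, had 1.84, 1.71 and 1.65 CPM in Plg KO and 1.97, 2.53 and 1.95 CPM in Plg WT, with each Plg KO library below each Plg WT library (log2 difference -0.31 ± 0.22 SE, edgeR adjusted p = 0.747). Log2 differences were 0.30 ± 0.13 for Myd88 and 0.39 ± 0.21 for Tlr2 (SE). Sap130 had 7.64, 7.15 and 7.28 CPM in Plg KO and 7.72, 9.50 and 6.86 CPM in Plg WT, and its groups overlapped. It was listed for the protein ligand of Mincle of that name. The gene symbol belongs to a different protein, so the ligand itself was not examined.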

How the data were processed

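Total RNA of gingiva was measured in 6 libraries. Per the labels' protocols these were made with Nextera XT, which does not mark strand, and read as 37 bp pairs, so overlapping and antisense genes share reads that no strand separates. The submitters' processing notes name STAR 2.5.2a, DESeq2, edgeR and limma, with GRCm38.p3 and mm10. For the counting tool and annotation, the sources used here give no name. The authors deposited raw counts for 48709 genes (22 further entries name no gene, hold at most 3.55e-05% of a library and were left out) and a table of TMM-scaled CPM for 21948 genes, which here supplied gene names and, as an added alternative, recovered reads (100% of values whole within 0.01; 0 unequal to the raw counts). Names came from it for 21658 identifiers and from GENCODE M21 for 26691, and 360 had none.

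Counts were fitted with edgeR 4.0.16 in R 4.3.3 (TMM, filterByExpr, quasi-likelihood F test on genotype, Benjamini-Hochberg adjustment over 17757 genes). CPM in the text is TMM-normalised in this fit, and the SE is the log2 difference divided by the square root of F. A count of 0 allows 3 counts, which equal 0.0810 to 0.117 CPM in Plg KO and 0.0819 to 0.107 CPM in Plg WT. Library pairs differed beyond sampling noise, so none were merged. The members and gene lists were chosen with earlier results of these data known. Named genes are the members, the 3 genes with the smallest p and any called gene of each list, the 5 closest to Clec4e and the tested genes within 500 kb of it; Sap130, Cebpb, Bcl10, Malt1, Nos2, Cd247 and the markers were named after their values were seen. All 187 listed symbols were matched and 156 were tested. In a simulation of the Plg KO and Plg WT comparison (17524 genes) the test called 59 of 100 genes changed 2-fold, 100 of 100 changed 4-fold and 9 of 17324 unchanged ones. It gave every gene the same spread between libraries and changed none of the least expressed genes. These rates therefore do not carry over to low-count genes or genes of wider spread. In the data, Clec4d at 5.51-fold and Clec7a at 4.12-fold were not called. Alternatives were DESeq2 1.42.0, limma-voom (limma 3.58.1), upper-quartile and RLE factors, a test without filter, a stricter filter (1 CPM in 3 libraries), a replicate block, a term for sex, each library left out, an adjusted p under 0.10 and the recovered reads; the last, and the same alternatives for Il1b, were added after seeing the data.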

Additional observations from a re-analysis of the deposited data

How the results depend on the processing

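With edgeR, 34 genes were called higher and 8 lower. DESeq2 called 263 higher and 132 lower, a smaller share of higher calls; without a filter on low counts the numbers were 122 higher and 40 lower, with a term for sex 54 higher, and at an adjusted p under 0.10 95 higher and 26 lower. Leaving out each library in turn gave 1 to 184 higher (184 without Plg WT 1, 1 without Plg WT 2 or Plg WT 3) and 1 to 35 lower. Of the members, 1 was called higher; DESeq2 called 4, no filter 2 (Clec4e and Clec7a), an adjusted p under 0.10 also 2, and leaving out a library 0 to 1. With the replicate block, 2 genes were called higher and 0 lower, with 0 members: the calls of Clec4e and of Il1b (adjusted p = 0.0842 by edgeR) were both lost. Replicate numbers did not pair the libraries (correlation of same-numbered deviations -0.233, -0.0067 and -0.200), so the block adjusts for no known pairing.

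Clec4e kept a log2 difference of 3.77 to 4.24 over 15 alternatives, and Il1b one of 2.60 to 3.12 with an adjusted p of 5.63e-15 (DESeq2) to 0.117. Clec7a ran from 1.76 to 2.21, Clec4n from 1.26 (without Plg KO 2) to 2.001, Fcer1g from 0.25 (without Plg KO 1) to 0.52 and Syk from -0.46 to -0.21. Clec4d ran from 1.90 (without Plg WT 1) to 3.47. Clec4a1 and Clec4a3 turned negative without Plg KO 1 (-0.18 and -0.21), Clec4a2 turned positive without Plg KO 3 (0.08) or Plg WT 2 (0.07), and Card9 turned negative without Plg KO 1 (-0.05) or Plg WT 1 (-0.23). The cause of these shifts was not tested. With 3 to 7 counts per Plg WT library, the level of Clec4e there is limited by depth.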
